A study of Mus musculus with 10 samples.

Results

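The flavin-containing monooxygenases are a small family of microsomal enzymes, and 4 of its mouse genes were followed here in liver: Fmo1, Fmo2, Fmo4 and Fmo5. They were taken by name, as 4 of 16647 genes in the count table. All 4 passed the minimum of 60 counts summed over the livers, which left 13219 genes for the test. Fmo6 and Gm4847, further genes of the family, are given beside them, while Fmo9 and Gm4846 were not analysed here.

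The study asked how MI-883, an agonist of human CAR and antagonist of human PXR, acts on the liver of mice with diet-induced hypercholesterolemia. Total liver RNA was sequenced from 5 MI-883-treated and 5 control animals, 1 library per animal. All animals were male, carried human PXR, CAR and CYP3A4/3A7 in place of the mouse genes, and were 10 to 15 weeks old when a high-fat diet began. After 8 weeks on the diet, MI-883 at 5 mg/kg or its vehicle, corn oil (90%) with 5% each of PEG300 and DMSO, was given by gavage 3 times per week for 4 weeks while the diet went on. Every animal shares the humanized loci and the diet, so no library shows these genes on chow, in wild-type mice or in females.

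These enzymes sit in the membrane of the endoplasmic reticulum and hold FAD, which takes electrons from NADPH and then binds oxygen. The oxygenated flavin passes an oxygen atom to nitrogen or sulfur atoms of drugs, amines and thioethers, giving N-oxides and S-oxides. FMO1 also turns hypotaurine into taurine, FMO2 is best known from lung, and FMO4 is the least characterized of the family. FMO5 stands apart, since it has little N- or S-oxygenation activity and inserts oxygen beside carbonyl groups instead, and mice lacking it have been described as lean with low plasma cholesterol.

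A stretch from the start of the coding sequence of 3 of the genes is printed to show what they share and why their reads can be told apart. The capitals mark the codons of the 3 glycines of the FAD-binding fingerprint near the amino terminus, and the sequences come from the GENCODE M21 transcripts of GRCm38, coding strand, in frame. The stretches of Fmo2 and Fmo4 begin at the start codon and that of Fmo5 at codon 2, so that the glycine codons line up.
Fmo2: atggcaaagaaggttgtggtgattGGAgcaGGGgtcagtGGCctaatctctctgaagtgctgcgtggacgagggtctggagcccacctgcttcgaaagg
Fmo4: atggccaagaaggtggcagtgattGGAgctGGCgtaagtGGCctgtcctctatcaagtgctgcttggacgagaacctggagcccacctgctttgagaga
Fmo5: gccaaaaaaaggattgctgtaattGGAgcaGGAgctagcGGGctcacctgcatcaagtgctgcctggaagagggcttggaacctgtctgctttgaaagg
Over these 99 bases, 60 positions were the same in all 3 genes. Fmo2 and Fmo4 shared the most bases with 80, while Fmo5 shared 68 with Fmo2 and 66 with Fmo4. Over the whole coding sequence the pairs of the 4 members were 62.8% (Fmo1 and Fmo5) to 67.2% (Fmo2 and Fmo4) identical, and the longest identical run between any 2 of them was 24 bases. No stretch of 100 bases in the transcripts of Fmo2, Fmo4 or Fmo5 occurred in a transcript of another gene, and 2.37% of those of Fmo1 did, against paired reads of 150 bases.

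On GRCm38, Fmo4 (chr1:162793188-162813972), Fmo1 (chr1:162829561-162866610) and Fmo2 (chr1:162874317-162898726) lie near each other on the minus strand of chromosome 1. Fmo5 lies alone on the plus strand of chromosome 3 (chr3:97628804-97655282). The longest coding transcript has 9 exons in Fmo1, Fmo2 and Fmo5 and 10 in Fmo4, and no annotated gene overlaps any of the 4.

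Depth was 23513665 to 36221514 counts per library. Mouse Cyp3a11, replaced in these animals, had at most 1 count per liver, whereas 279 to 469 counts lay on Nr1i2 and 129 to 297 on Nr1i3, the genes of mouse PXR and CAR, and whether these reads came from human transcripts was not tested. Summed CPM (counts scaled to a common library size by TMM) of the 7 hepatocyte markers was 64310 to 74700 in control and 55620 to 67740 in MI-883-treated livers. The markers of other liver cells were far lower in sum, and their values stand with the gene lists.

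Fmo5 was the only one of the 4 genes whose expression changed past the threshold. It rose 1.56-fold (95% interval 1.33 to 1.82) in the livers treated with MI-883. In control livers 1 to 5 its level was 1378, 1473, 1331, 1146 and 1176 CPM. In MI-883-treated livers 1 to 5 it was 1800, 2314, 1837, 2200 and 1979 CPM. Every treated liver lay above every control liver, so the groups did not overlap. Mean levels were 1301 ± 138 CPM in control and 2026 ± 225 CPM in treated livers (S.D., n = 5 each). The log2 fold change was 0.64 with a standard error of 0.10, and the adjusted P was 0.00978 (edgeR quasi-likelihood test, Benjamini-Hochberg over all tested genes). Fmo5 ranked at 44 among the 13219 genes by P. DESeq2 gave it an adjusted P of 2.78e-08.

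Calls were rare in this comparison, and Fmo5 belongs to the upper end of the expression range. By edgeR, 136 genes (1.03%) passed the threshold of 0.05 in either direction and 101 (0.764%) were higher after MI-883. Non-overlap with every treated liver higher, as seen for Fmo5, held for 271 genes (2.05%). DESeq2 called 463 genes (3.5%). Only 80 tested genes had a higher mean level than Fmo5 in CPM, which is not scaled for gene length here, and 26801 to 55819 reads per liver were counted on Fmo5. Taken alone, its difference in mean log2 CPM was 0.64, with P = 0.00794 by an exact permutation test (two-sided), the smallest P that 5 against 5 can give. In whole-liver RNA, more RNA per cell and more cells that express a gene cannot be told apart.

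**Figure D1:**
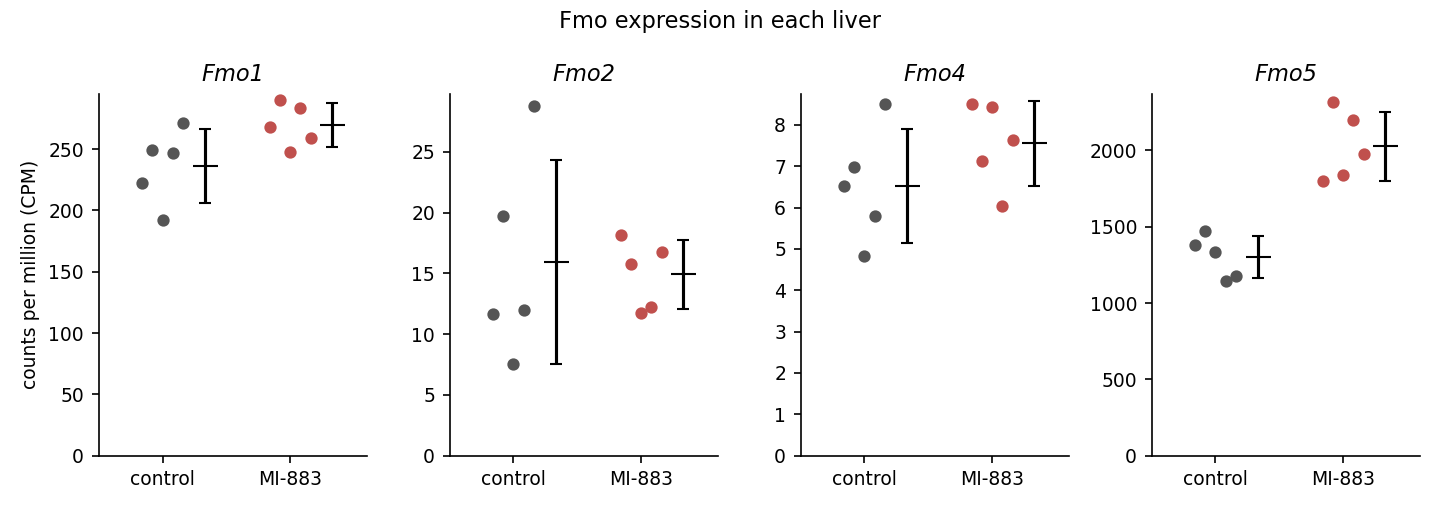
Each panel plots the CPM of 1 gene in the 5 control (grey) and 5 MI-883-treated (red) livers, with the mean and S.D. beside the points and a vertical axis from 0. The treated livers lie at 1800 to 2314 CPM for Fmo5, above all control livers (1146 to 1473 CPM), while the groups overlap for Fmo1, Fmo2 and Fmo4.

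Fmo1, the hypotaurine-oxidizing member, was higher by 1.14-fold after MI-883 without passing the test. Control livers 1 to 5 had 222.5, 249, 192.2, 247 and 271.6 CPM. Treated livers 1 to 5 had 267.8, 290.5, 247.3, 283.7 and 259.3 CPM. Although 5 of 5 treated livers lay above the control median of 247 CPM, only 2 exceeded the highest control liver. The means were 236 ± 30.2 and 270 ± 17.6 CPM (S.D., n = 5 each). The log2 fold change was 0.19 (95% interval -0.0095 to 0.39, adjusted P = 0.342 by edgeR). This interval lay below that of Fmo5 (0.42 to 0.86), but only their ratio within livers, given below, compares both genes directly. The difference of mean log2 CPM gave P = 0.0714 (exact two-sided permutation test), and this P fell to 0.0317 without control 5, to 0.0476 without MI-883 replicate 3 and to 0.00794 when libraries were scaled by total counts. It rose to between 0.0952 and 0.143 when any other liver was left out. By edgeR the adjusted P under total counts was 0.217.

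Fmo4, low in these livers, showed no change past the threshold. Its level was 6.51, 6.97, 4.82, 5.79 and 8.51 CPM in control livers 1 to 5. In treated livers 1 to 5 it was 8.51, 7.12, 8.44, 6.05 and 7.62 CPM. The highest value was the same in both groups to 3 digits, and 4 of 5 treated livers were above the control median. With 118 to 249 reads per liver, the log2 fold change was 0.22 (95% interval -0.11 to 0.54, adjusted P = 0.511 by edgeR). This interval overlapped that of Fmo5 (0.42 to 0.86). Permuting the livers gave P = 0.198 (exact test, two-sided).

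Fmo2 had the widest spread between livers. In control livers 1 to 5 it was 11.6, 19.7, 7.52, 12 and 28.7 CPM, the highest value being in control 5 and the lowest in control 3. In treated livers 1 to 5 it was 18.1, 15.8, 11.7, 12.2 and 16.7 CPM, all within the range of the controls. The coefficient of variation was 52.8% in control and 18.9% in treated livers. The log2 fold change was -0.08 (95% interval -0.70 to 0.53, adjusted P = 0.913 by edgeR), which spans 0.615 to 1.44 times the control level. Its sign turned to 0.23 without control 5 and to 0.01 without control 2, and the difference of mean log2 CPM over all livers was 0.04 (P = 0.944, exact two-sided permutation test). No direction can therefore be given for Fmo2 at this spread.

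Set against genes of like abundance, within 0.5 log2 CPM, the spread of Fmo2 was unusual and that of the others was not. Its pooled S.D. within groups was 0.564 on the log2 scale, where the 2174 genes of like level had a median of 0.149 and 98.8% had a lower S.D. than Fmo2. For Fmo1 the S.D. was 0.151 against a median of 0.153, for Fmo4 0.258 against 0.2, and for Fmo5 0.156 against 0.18.

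**Figure D2:**
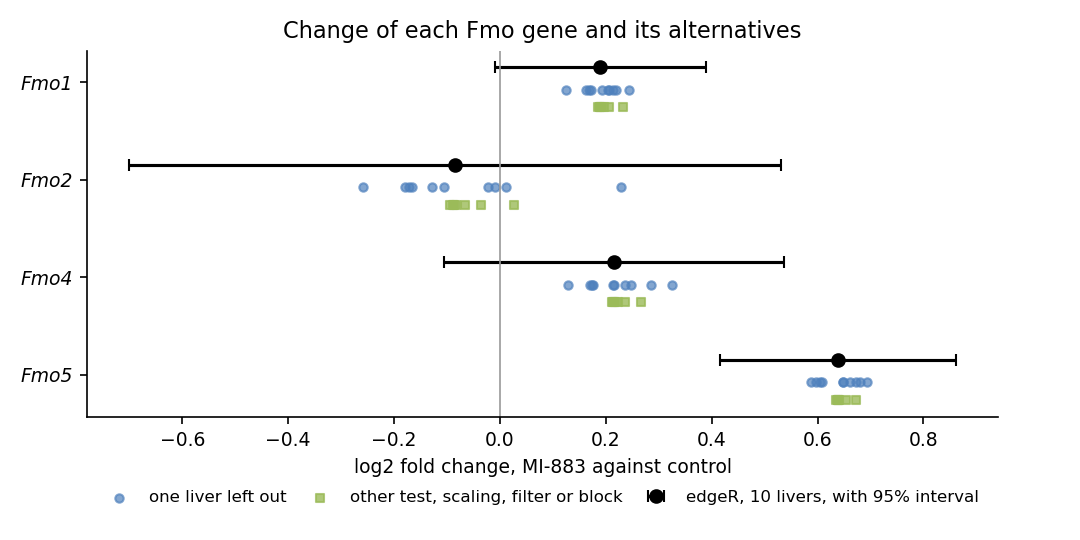
Log2 fold changes of MI-883 against control for the 4 genes, as the edgeR estimate with its 95% interval (black), the values with 1 liver left out (blue) and those under another test, scaling, filter or replicate block (green). All Fmo5 values lie between 0.59 and 0.69, whereas those of Fmo2 fall on both sides of 0.

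Whether Fmo5 moved further than its relatives was asked within each liver, where a ratio of 2 genes does not depend on library scaling. The ratio of Fmo5 to Fmo1 reads was 6.19, 5.92, 6.92, 4.64 and 4.33 in control livers 1 to 5. It was 6.72, 7.97, 7.43, 7.76 and 7.63 in treated livers 1 to 5. Control 3 lay above the lowest treated liver, MI-883 1, so the groups overlapped by a single pair. On the log2 scale the ratio was 0.44 higher after MI-883 (95% interval from the pooled S.D. 0.13 to 0.75). This difference had P = 0.0159 before and 0.0952 after Benjamini-Hochberg adjustment over the 6 pairs (exact two-sided permutation test), and thus did not pass the threshold.

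The remaining pairs gave smaller or less certain differences. Fmo5 against Fmo4 differed by 0.41 (-0.10 to 0.93, adjusted P = 0.302) and Fmo5 against Fmo2 by 0.60 (-0.29 to 1.48, adjusted P = 0.302), both by the exact permutation test. Without control 5 the difference against Fmo2 was 0.31. Among the chromosome 1 genes the differences were 0.03 for Fmo4 against Fmo1 (-0.31 to 0.36), 0.18 for Fmo4 against Fmo2 (-0.37 to 0.74) and -0.15 for Fmo2 against Fmo1 (-0.82 to 0.51). Without control 5 that of Fmo4 against Fmo2 was 0.03. None of the 6 pairs had an adjusted P under 0.05, and 1 had an unadjusted P under 0.05. The smallest P of this permutation test with 5 against 5 is 0.00794, so a single pair can pass over 6 pairs only without overlap. A different response of Fmo5 and its relatives was thus not shown, although only Fmo5 passed the test by itself.

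**Figure D3:**
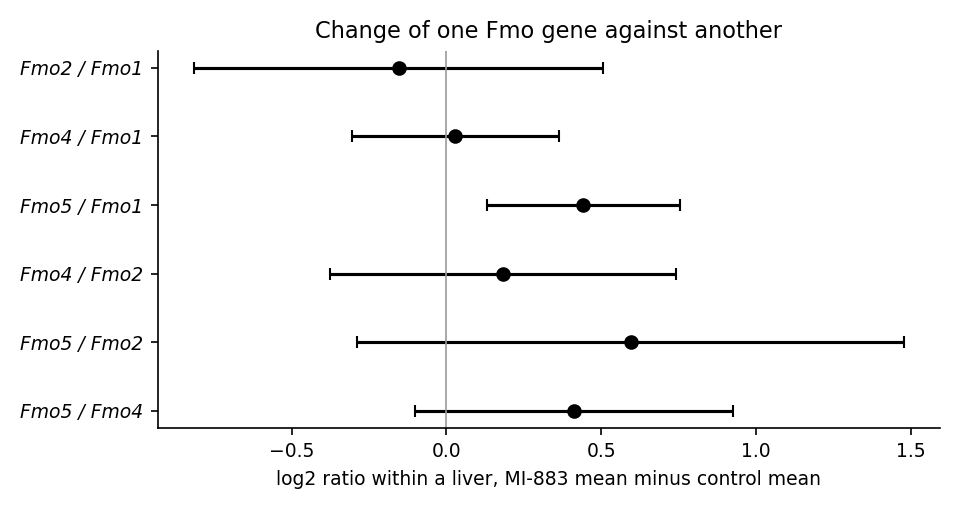
Differences between the group means of the log2 ratio of 2 Fmo genes within a liver, MI-883 minus control, with 95% intervals from the pooled S.D. of 5 livers per group. The interval of Fmo5 to Fmo1 (0.13 to 0.75) lies above 0 and the other 5 include 0.

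Levels of different genes were compared per kb of exon. Fmo5 was the most abundant with 229 ± 24.3 CPM per kb in control livers (S.D., n = 5), followed by Fmo1 with 37.5 ± 4.80, Fmo2 with 2.84 ± 1.5 and Fmo4 with 1.76 ± 0.371. In treated livers the order was the same, with 357 ± 39.6, 42.8 ± 2.79, 2.66 ± 0.504 and 2.04 ± 0.275 CPM per kb. Fmo5 exceeded Fmo1 by 4.81 to 7.69 times in single control livers and by 7.47 to 8.85 times in treated ones, and neither this step nor that from Fmo1 to Fmo2 had overlapping levels. The ranges of Fmo2 and Fmo4 over livers overlapped in both groups. Within single livers, Fmo2 was the higher in 5 of 5 control livers (1.03 to 2.23 times) and 4 of 5 treated livers (0.919 to 1.47 times), and this difference was not tested.

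Of the summed level per kb of the 4 genes, Fmo5 made up 84.4% ± 2.9 in control and 88.2% ± 0.826 in treated livers, and Fmo1 13.9% ± 2.32 and 10.6% ± 0.611 (S.D., n = 5 each). Fmo2 and Fmo4 stayed at or under 1.99% each in any liver. With the length of the longest transcript in place of all exons, Fmo1 came to 76.1 CPM per kb and Fmo5 to 250 CPM per kb in control livers, and the step between them to 2.59 to 4.14 times.

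**Figure D4:**
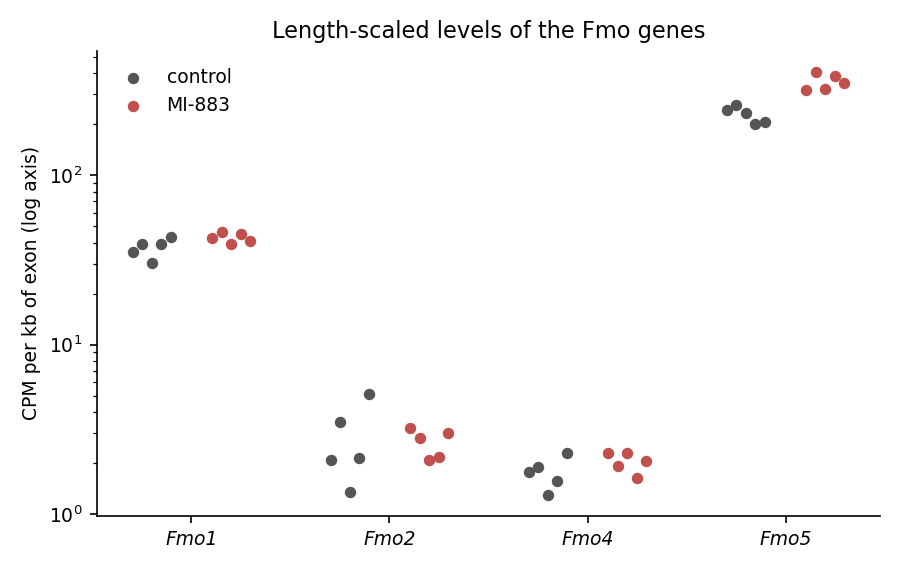
Levels of the 4 genes in each liver in CPM per kb of exon on a log axis, for control (grey) and MI-883-treated (red) livers. Fmo5 lies at 202 to 408, Fmo1 at 30.5 to 46.1, Fmo2 at 1.34 to 5.12 and Fmo4 at 1.30 to 2.30, so that the last of these ranges overlaps that of Fmo2.

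Fmo6 had 3 reads and Gm4847 had 1 read over all livers, so that both stayed under the floor of 3 counts in each liver and no fold is given.

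Control 5, highest in Fmo1 and Fmo2 among the controls and close to the highest treated liver in Fmo4, also stood apart in some sex-biased genes, which were picked after their values were seen. Cux2, a female-biased transcription factor, was at 2.11 CPM there and at 0.187 to 0.279 CPM in control livers 1 to 4. Acot3, a female-biased acyl-CoA thioesterase, was at 138 CPM there, and at 55.7 CPM in the next highest control. Mup20, a male-biased urinary protein, was at 3750 CPM against 7000 CPM in the next lowest. The part of these genes in the Fmo values was not tested, and the other genes of the sex-biased lists are not given for control 5 here. Without control 5 the log2 fold changes were 0.24 for Fmo1, 0.32 for Fmo4 and 0.61 for Fmo5 (adjusted P = 0.301, 0.367 and 0.0327 by edgeR).

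How the 4 genes varied together across livers is given as a description of libraries that share their scaling. After the mean of each group was subtracted, Pearson's r over the 10 livers was 0.819 between Fmo2 and Fmo4, 0.794 between Fmo1 and Fmo2 and 0.471 between Fmo1 and Fmo4. Spearman's rho was 0.648, 0.77 and 0.273. Without control 3 and control 5, the livers farthest from the median, r was 0.448, 0.33 and -0.552, so these relations rest on those livers. Between Fmo5 and the others r was 0.0303 (Fmo1), -0.137 (Fmo2) and -0.402 (Fmo4) over all livers, with rho of 0.2, -0.103 and -0.358. Without the same livers it was 0.472, 0.238 and -0.304, which made Fmo1 and Fmo5 the pair with the highest r.

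The genes most alike in pattern were ranked by the same r among 11609 genes with a mean of at least 1 CPM. The highest of so many r values over 10 livers are high by selection, so they are given as a description without a test. For Fmo5 they were Chac1, a glutathione-degrading enzyme (r = 0.932), Lims2, a focal adhesion protein (r = 0.931), and Furin, a proprotein convertase (r = 0.929). Fmo1 was most like Tmtc2 (r = 0.957), Cyp3a57 (r = 0.94) and Uap1 (r = 0.934), with the counts of Cyp3a57 uncertain because its family has near-identical copies. Fmo2 was nearest to Pik3c3 (r = 0.962), Rrn3 (r = 0.958) and Pros1 (r = 0.891), and Fmo4 to Eif2ak4 (r = 0.922), Tcn2 (r = 0.888) and Ubr7 (r = 0.881). Without the 2 livers farthest from the median of each Fmo gene, r was 0.893 to 0.94 for Fmo5 and 0.844 to 0.869 for Fmo1. It was then 0.656 to 0.923 for Fmo2 and 0.748 to 0.928 for Fmo4. By edgeR none of these 12 genes passed the test after MI-883 (adjusted P of 0.143 to 0.992 by edgeR), while Pros1 passed by DESeq2 (adjusted P = 0.0344), and the genes alike to Fmo5 within groups had log2 fold changes of -0.68, 0.15 and -0.00319 where Fmo5 had 0.64.

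Genes that supply the cofactors of these enzymes showed no call by edgeR. Of all tested genes edgeR called 1.03% and DESeq2 3.5%, so a list this short without a call says little about its genes. NADPH comes from Me1, H6pd, Idh1 and the pentose phosphate enzymes, and 0 of 10 such genes passed the test by edgeR, with 9 higher and a median log2 fold change of 0.21, beside a median of 0.0045 over all tested genes. By DESeq2, Tkt and Nadk, named after their values were seen, passed. The 3 most abundant were Idh1 (637 ± 48.5 and 662 ± 48.8 CPM in control and treated livers), H6pd (377 ± 44.6 and 429 ± 41.2 CPM) and Me1 (339 ± 61.8 and 420 ± 52.7 CPM). For FAD, 0 of 4 genes passed by edgeR and 1, the riboflavin transporter Slc52a2 (12 ± 1.16 and 15.4 ± 1.85 CPM), by DESeq2. FAD synthase, Flad1, was at 51.8 ± 5.62 and 54.2 ± 6.96 CPM, and Rfk, the riboflavin kinase, at 14 ± 1.17 and 15.7 ± 1.34 CPM (S.D., n = 5 each).

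Among 6 partners of microsomal oxidation, Ephx1, the epoxide hydrolase of the same membrane, rose from 524 ± 86 to 800 ± 44.5 CPM (log2 fold change 0.61, SE 0.108, adjusted P = 0.0182 by edgeR), though its adjusted P was 0.0545 with the replicate block. Pgrmc1, a heme-binding partner of P450 enzymes, was at 1683 ± 122 and 2162 ± 202 CPM, without overlap of the groups (adjusted P = 0.0864 by edgeR and 0.00135 by DESeq2), and Cyb5a, cytochrome b5, at 1413 ± 129 and 1842 ± 295 CPM (adjusted P = 0.149 by edgeR and 0.0317 by DESeq2). Por, the reductase that feeds P450 enzymes but not the Fmo enzymes, was at 850 ± 231 and 1147 ± 356 CPM (adjusted P = 0.365 by edgeR). The median log2 fold change of the list was 0.37. By edgeR 1 of 6 genes passed, beside 1.03% of all tested genes, and by DESeq2 3 of 6, beside 3.5%.

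Genes that act on the substrates and products of the family did not pass by edgeR. Since edgeR called 1.03% and DESeq2 3.5% of all tested genes, short lists without a call say little about their genes. N-oxygenated compounds can be reduced back by Mtarc1, Mtarc2, Cyb5b, Cyb5r3, Aox1 and Aox3, of which 0 of 6 were called, with a median log2 fold change of -0.07. Cyb5r3, the most abundant, was at 781 ± 30.5 and 820 ± 49.5 CPM, Mtarc2 at 598 ± 58.9 and 502 ± 93.5 CPM and Mtarc1 at 551 ± 32.3 and 510 ± 27.4 CPM. Of 8 tested genes of hypotaurine and cysteamine, 0 were called by edgeR, and Cdo1, the cysteine dioxygenase that leads to hypotaurine, was at 423 ± 72.2 and 291 ± 51.7 CPM (log2 fold change -0.54, SE 0.138, adjusted P = 0.0914 by edgeR and 0.00915 by DESeq2). Baat, which joins taurine to bile acids, was at 288 ± 19 and 255 ± 20.8 CPM, and the transporter gene Slc6a13 at 211 ± 16.9 and 243 ± 8.01 CPM (adjusted P = 0.178 by edgeR and 0.0468 by DESeq2). Of 9 genes of choline and methylamines, 0 were called by edgeR or DESeq2, with a median of -0.12, and Bhmt, which remethylates homocysteine, was the most abundant at 3262 ± 654 and 2693 ± 308 CPM, followed by Sardh (1001 ± 128 and 918 ± 206 CPM) and Aldh7a1 (679 ± 43 and 686 ± 96.9 CPM).

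Genes known to answer to CAR and PXR served as a scale for the size of the Fmo5 change. Of 10 such genes, 8 rose by edgeR, beside 0.764% of all tested genes, with a median log2 fold change of 1.34 over all 10. Cyp2b10, the classic CAR target, went from 36.5 ± 9.10 to 1019 ± 299 CPM (log2 fold change 4.80, adjusted P = 3.63e-07). Cyp2c55 and Gstm3 rose by 3.20 and 3.24, Abcc4 by 2.45, Cyp2c37 by 1.66 and Cyp2c29 by 1.02. The log2 fold change of Fmo5, 0.64 (SE 0.103), lay below that of Cyp2c29 (SE 0.102). It lay above those of the bilirubin-conjugating Ugt1a1 (0.55, SE 0.106) and the bile acid exporter Abcc3 (0.46, SE 0.0915). This order was not tested, and the estimates of Fmo5 and Ugt1a1 differ by less than either SE. The Cyp2c genes have close copies and Ugt1a1 shares exons with its neighbours, so their counts are less certain than those of Fmo5. Gsta2 and Alas1 had values of 0.12 and 0.06 without passing. With the replicate block, Ugt1a1 and Abcc3 had adjusted P of 0.053 and 0.0948, while that of Fmo5 was 0.031.

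Of 5 tested genes of the Ah receptor battery, Cyp1a2 rose from 286 ± 56.5 to 969 ± 211 CPM (log2 fold change 1.76, adjusted P = 0.000124 by edgeR), and Cyp1a1 (0.974 ± 0.357 and 1.67 ± 0.605 CPM), Nqo1 (10.1 ± 2.81 and 15.4 ± 4.22 CPM) and Tiparp (6.46 ± 1.39 and 6.33 ± 1.47 CPM) did not pass. Because several Fmo genes differ between the sexes in mouse liver, sex-biased genes were counted as well. Of 12 male-biased genes, 4 rose, namely Cyp4a12a (0.85), Cyp4a12b (0.80), the complement gene C6 (0.59) and Cyp2d9 (0.58), and 8 did not pass, among them Mup20 (0.26), Nudt7 (-0.26) and Slco1a1 (-0.23). Of all tested genes, edgeR called 0.764% higher and 1.03% in either direction, and DESeq2 called 3.5%. With the replicate block, Cyp4a12a (adjusted P = 0.081), Cyp4a12b (0.062) and Cyp2d9 (0.0602) no longer passed, and C6 did (0.0451). Cyp4a12a and Cyp4a12b are close copies, and the split of reads between them is uncertain. Of 7 tested female-biased genes, 0 passed by edgeR or DESeq2, with a median log2 fold change of -0.60 and a summed level of 32 to 167 CPM in control and 38.1 to 84.1 CPM in treated livers. The most abundant were Acot3 (54.9 ± 48.5 and 36.1 ± 12.6 CPM), Cyp2b9 (17.6 ± 10.8 and 7.8 ± 5.51 CPM) and Cyp2a4 (7.75 ± 2.09 and 8.49 ± 3.71 CPM).

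Markers of liver cell types had no call by edgeR, and by DESeq2 only the endothelial Cdh5 passed (adjusted P = 0.0223). With 1.03% of all tested genes called by edgeR and 3.5% by DESeq2, short lists without a call say little about their genes. The summed level of 6 bile duct markers was 25.1 to 118 CPM in control and 35.1 to 191 CPM in treated livers, that of 7 Kupffer and leukocyte markers 229 to 322 and 185 to 415 CPM, that of 6 endothelial markers 102 to 137 and 112 to 154 CPM, and that of 7 stellate and fibroblast markers 235 to 381 and 274 to 457 CPM. The groups overlapped in each of these sums. Each sum follows its most abundant markers and says little about the others. Of the single markers in these sums only Cdh5 did not overlap, with every treated liver higher, as held for 2.05% of all tested genes. Among the hepatocyte markers, summed earlier, Ttr did not overlap either, at 6030 to 7420 CPM in control and 4690 to 5870 CPM in treated livers. All 7 hepatocyte markers had negative log2 fold changes, between -0.36 and -0.003, as did 6475 of the 13219 tested genes, and none passed by edgeR or DESeq2. The part of these markers in the Fmo values was not tested.

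**Figure D5:**
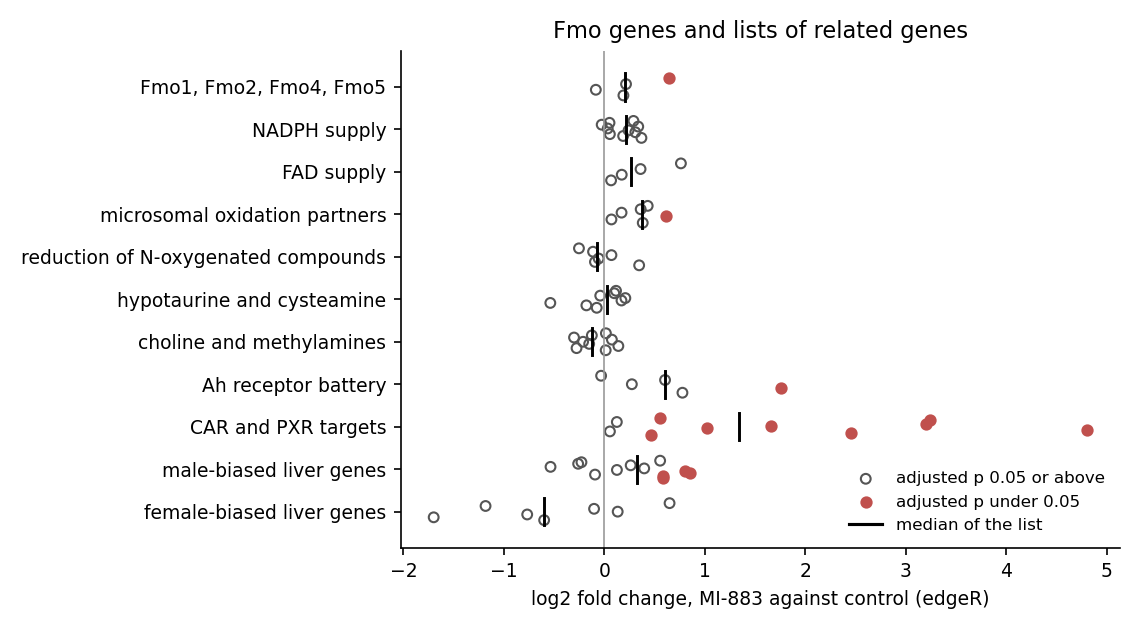
Log2 fold changes of the tested genes of each list by edgeR, filled where the adjusted P was under 0.05, with a black bar at the median of the list. Fmo5 is the filled point of the top line at 0.64, the 8 filled CAR and PXR targets span 0.46 to 4.80, and no gene of the cofactor or substrate lists is filled. Of all tested genes, 1.03% passed by edgeR.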

How the data were processed

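Liver RNA of 5 control and 5 MI-883-treated animals was sequenced as 150-base read pairs from strand-marking libraries. The authors aligned reads with STAR and counted them per gene with featureCounts, and they deposited raw counts under Entrez gene numbers. The submitters' processing notes name fastp 0.23.0 and mm10. Versions of the aligner and counter, the annotation and the strand setting were not given in the sources used here. Symbols of 16644 genes came from RefSeq, 3 genes were unmatched, and coordinates, lengths and sequences came from GENCODE M21 (GRCm38), which may not be the annotation of the counts.

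Genes with a sum of at least 60 counts entered the quasi-likelihood test of edgeR 4.0.16 (R 4.3.3, TMM scaling, condition as the only term, Benjamini-Hochberg over 13219 genes). CPM values use TMM-scaled library sizes, and log2 CPM a prior count of 0.5. Exact permutation tests used scipy 1.17.1. Groups came from the labels. P-values measure the spread between animals. No column was left unassigned, and no 2 libraries had the same count in more than 1.76% of tested genes. Alternatives were DESeq2 1.42.0 (Wald test, size factors), total counts, other filters, a replicate block, other prior counts and lengths, and leaving out each liver. Floors cover counting error only. The tests were tried on simulated data with known changes.

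The members, lists and tests were chosen with earlier results of these data known. Genes named from a list are those with an adjusted P under 0.05 and otherwise up to 3 with the highest mean CPM, and for each Fmo gene the 3 most alike. Cell type markers are given as sums. Some genes under this rule and some sequence are not reported here. Tkt, Nadk, Cux2, Cdh5 and Ttr were named after their values were seen, and Cyp3a11, Nr1i2 and Nr1i3 as a check of the humanized loci.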

Additional observations from a re-analysis of the deposited data

Results flagged for a closer look

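Among values of the livers, 136 groups of 5 were searched for a liver far from the other 4 by Dixon's criterion, and 3 were found, where chance flags about 1 in 20 groups, or 6.8. Cux2 in control 5, given above at 2.11 CPM beside 0.187 to 0.279 CPM in control livers 1 to 4, is not among these 3. The count of 3 therefore does not cover every named value that stood apart. The log2 ratio of Fmo4 to Fmo2 was -0.475 in MI-883 3, with -1.01 in the next treated liver. C6 was at 330 CPM in control 3, with 241 CPM in the next control. Mtarc1 was at 462 CPM in MI-883 3, with 514 CPM in the next treated liver.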

How the results depend on the processing

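Fmo5 kept its direction and its adjusted P under 0.05 in all 17 alternatives of the edgeR fit, with log2 fold changes of 0.587 to 0.693 and adjusted P of 0.0107 to 0.0341 when single livers were left out. Fmo1 (0.124 to 0.244) and Fmo4 (0.128 to 0.325) stayed above 0 and short of the threshold in all 17. Fmo2 lay between -0.259 and 0.229 with livers left out and at 0.0276 with the replicate block. The number of genes called was 136, against 463 with DESeq2, 89 with the replicate block and 62 to 208 with livers left out. It was 208 without control 1, 87, 81, 75 and 68 without controls 2, 3, 4 and 5, and 70 and 62 without MI-883 replicates 2 and 5. The cause was not tested. Deviations of libraries with the same replicate number had a correlation of 0.355 for replicate 1 and of -0.117 to 0.0732 for the other 4, so the numbers were not taken as paired. The replicate block kept the call of Fmo5 (adjusted P = 0.031).

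The difference of mean log2 CPM of Fmo1 was 0.24 under total counts and 0.125 to 0.25 with livers left out, with P = 0.00794 under total counts, 0.0317 without control 5, 0.0476 without MI-883 replicate 3 and 0.0952 to 0.143 without any other liver (exact permutation test). That of Fmo2 was -0.985 as a difference of mean CPM and -0.188 to 0.295 with livers left out, none with P under 0.05. With livers left out, the change of Fmo2 against Fmo1 ran from -0.313 to 0.045 and that of Fmo4 against Fmo1 from -0.0446 to 0.125, while Fmo4 against Fmo2 ran from 0.0338 to 0.312 (0.0979 without control 2, 0.312 without control 3, 0.0338 without control 5 and 0.0591 without MI-883 replicate 3), Fmo5 against Fmo2 from 0.309 (without control 5) to 0.837, Fmo5 against Fmo4 from 0.276 to 0.524 and Fmo5 against Fmo1 from 0.354 to 0.524. The length-scaled level of Fmo1 was 76.1 and that of Fmo4 2.43 CPM per kb with the longest transcript, by construction of the shorter length. Fmo4 rests on 118 to 249 and Fmo2 on 184 to 655 counts per liver. Fmo6 and Gm4847 were too low to compare.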
